A study of Mus musculus with 8 samples.

Results

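The 10 genes described here encode the machinery that makes microRNAs and the proteins that carry them: Drosha, Dgcr8, Xpo5, Dicer1, Tarbp2, Ago1, Ago2, Ago3, Ago4 and Tnrc6a. They are a list of names chosen for their function, with earlier results of these data known, and all 10 were found among the 21887 protein-coding genes of the RefSeq table on chromosomes 1 to 19, X and Y. H3K36me3, trimethylated lysine 36 of histone H3, had been mapped by chromatin immunoprecipitation and sequencing in embryonic stem cells of the mouse, kept feeder-free as floating spheres with LIF and the 2 inhibitors of 2i medium. Control cells (genotype control, Dox -) received no doxycycline, and knockdown cells (genotype Setd2 knockdown, Dox +) received 1 µg/ml for 4 days, which induced the knockdown of Setd2, the main enzyme that places this mark. The labels describe all cultures as carrying the inducible knockdown, but the peak file headers call the control list shCont, and they name both merged libraries D0, a term they do not explain. Whether control cells held the same construct, and whether the line was 1 clone, was not given. Doxycycline itself was given to the knockdown cells alone, so its effect and that of the knockdown cannot be told apart. Each of the 4 groups, H3K36me3 ChIP and input in both conditions, had 2 replicates, which the authors merged before peak calling. Each condition is therefore 1 peak list with no replicate spread, no test between conditions was possible, and every interval below covers counting error only. Intervals on shares of genes treat a chosen list as if its genes were drawn at random, and genes are not replicates.

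In the canonical pathway, RNA polymerase II transcribes a primary microRNA that folds into hairpins. In the nucleus the Microprocessor, made of the nuclease Drosha and the RNA-binding protein Dgcr8, cuts the hairpin out, and exportin 5 (Xpo5) carries it to the cytoplasm. There Dicer1, with its partner Tarbp2, trims it to a duplex, an Argonaute protein keeps 1 strand as a guide, and GW182 proteins such as Tnrc6a link the Argonaute to deadenylation and decay of the target messenger. Embryonic stem cells without Dgcr8 or Dicer1 survive but proliferate slowly and differentiate poorly. The mark itself is laid down on the bodies of transcribed genes by Setd2 travelling with elongating RNA polymerase II, so it describes the chromatin of these genes and not their RNA or protein.

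The merged ChIP libraries kept 36244210 tags in control and 29416169 in knockdown after removal of duplicates, and the inputs 35134297 and 33403964. The control list held 30634 peaks and the knockdown list 3040. Of the marker genes checked against the labelled cell type, 9 of 10 naive stem cell marker genes carried a control peak (Dppa5a did not), with a median covered share of 83.5%, against 1 of 6 fibroblast markers (Pdgfrb, 5.01% of its length), 0 of 5 primitive endoderm markers and 3 of 4 neuroectoderm markers (Sox1, Nes and Tubb3, at most 38.1%). Setd2 transcript and protein were not analysed here.

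Nearly all of the 10 genes carried the mark over some part of their length in control cells, and after knockdown it was called at a single place among these 10. A gene counted as marked when the midpoint of a peak lay in its RefSeq span. In control, 9 of the 10 genes were marked (90.0%, exact binomial 95% interval 55.5 to 99.7), by 50 peaks, against 41.2% of all protein-coding genes. All but Tarbp2 (7.6 kb) are at least 30 kb long. They reach 164.2 kb, beside a median of 17.2 kb for all protein-coding genes. Of all genes at least 30 kb long, 53.2% were marked in control and 8.03% in knockdown, beside 8 and 1 of the 9 members of that length. Only Ago4 had no control peak. In knockdown, Tnrc6a alone was marked, by 1 peak, against 4.95% of all protein-coding genes. Thus 1 of 9 marked members kept a peak (11.1%, 0.281 to 48.2), a share near that of all genes marked in control (10.6%) and of the long ones among them (13.2%), so it says nothing particular about these genes. Counting any overlap of 1 bp instead of the midpoint left the members at 9 and 1, and all protein-coding genes at 44.8% and 5.17%. Summed over the 10 genes, 290.7 kb of 688.4 kb lay under peaks in control (42.2%, against 9.37% over all protein-coding genes) and 1.895 kb in knockdown (0.275%, against 0.259%).

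**Figure D1:**
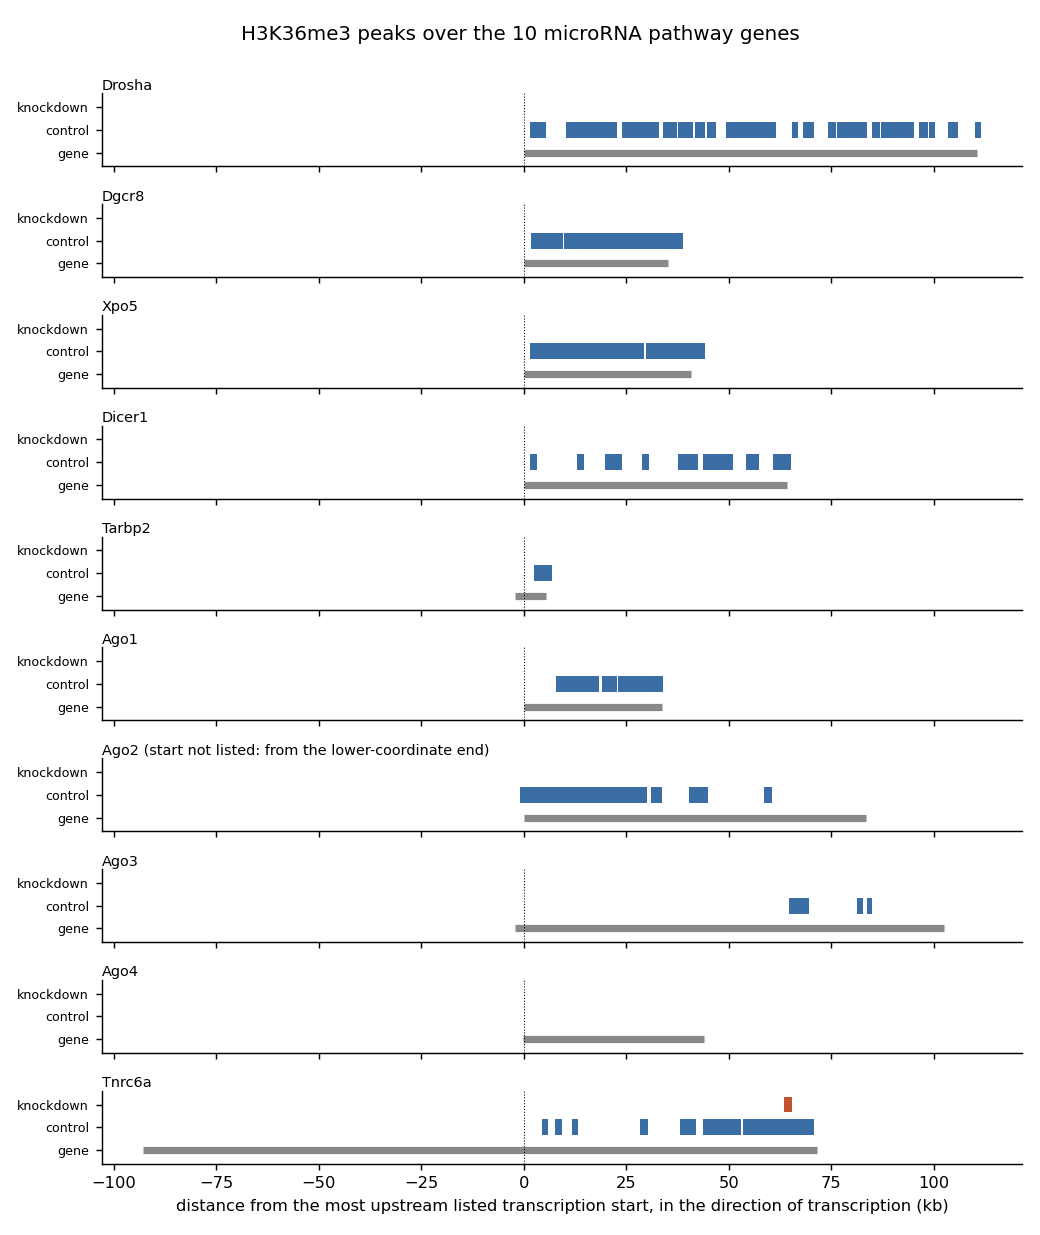
Peaks of the control list (blue) and the knockdown list (orange) over each gene (grey bar). The horizontal axis is the distance in kb from the most upstream transcription start in the promoter table, in the direction of transcription; Ago2, without an entry, runs from its lower-coordinate end. The knockdown row is empty in all genes except Tnrc6a, and both rows are empty in Ago4.

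The share of the gene under peaks, called the covered share, spanned nearly the whole possible range among the members in control, from 0 to 95.02%, with a median of 45.3% over all 10. The median over all protein-coding genes was 0, and over the marked ones 37.9% (quartiles 13.9% and 65.0%). At least 50% of the gene was covered in 4 members, Xpo5, Dgcr8, Ago1 and Drosha, against 17.0% of all protein-coding genes, and in none after knockdown, against 0.164%. Which members pass 50% depends on the settings: measured from the listed starts Tarbp2 (53.8%) and Tnrc6a (52.0%) pass as well, and with peaks of a score of 100 or more Xpo5 (27.2%) does not. In order, the covered shares in control were 95.02% in Xpo5, 94.2% in Dgcr8, 74.0% in Ago1, 71.3% in Drosha, 47.2% in Ago2, 43.5% in Dicer1, 38.8% in Tarbp2, 22.6% in Tnrc6a, 7.37% in Ago3 and 0 in Ago4. Without replicates the spread of these shares is unknown, so neighbours in this order, such as Xpo5 and Dgcr8 or Ago2 and Dicer1, cannot be ranked. In knockdown the covered share was 1.15% in Tnrc6a and 0 in the other 9.

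**Figure D2:**
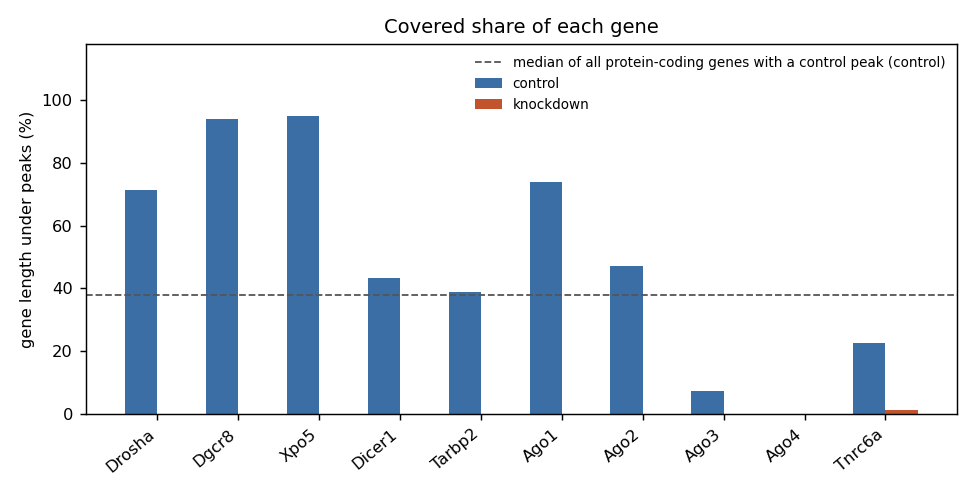
Percent of each gene's length under peaks in control (blue) and knockdown (orange), 1 list per condition, with the median of all protein-coding genes that had a control peak as a dashed line (37.9%). Control bars reach 95.02% in Xpo5 and are absent in Ago4; the only knockdown bar is that of Tnrc6a at 1.15%.

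Both Microprocessor genes were covered over most of their length, but in different ways. Drosha, the nuclease that makes the first cut, lies on chromosome 15 at 12824804 to 12935291 (mm10) and held 20 control peaks, which with the edge of 1 more peak at its 3′ end covered 78794 bp. Its peaks were 1447 to 12235 bp long, and gaps as small as 6 bp separated neighbours. When peaks less than 1 kb apart were joined, they formed 11 stretches. The peak density was 50.8 tags per kb (exact Poisson 95% interval 49.2 to 52.4), 2.62 times the mean over the caller's effective genome. For comparison between libraries, densities are also given as a scaled density, the tags per kb of peak per 1000000 kept tags. A divergent neighbour, 6030458C11Rik, lies 124 bp away on the other strand. It was covered over 83.1% in control and shared no peak with Drosha. No knockdown peak touched either gene.

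Dgcr8, the RNA-binding subunit that recognises the hairpin, lies on the minus strand of chromosome 16 at 18253948 to 18289251. It held 2 control peaks of 29022 and 7885 bp, 274 bp apart, over 94.2% of the gene. Their joint density, 67.2 tags per kb (64.6 to 69.9) or a scaled density of 1.85, was the highest of the 9 marked members, with an interval that overlapped that of Xpo5 only. The upstream one, with 591 tags, was the densest of all 50 member peaks at a scaled density of 2.07 (1.90 to 2.24). Only 0.914% of all control peaks were denser. The long one ran 3644 bp past the 3′ end of Dgcr8 into Trmt2a, a tRNA methyltransferase gene on the opposite strand whose last 825 bp overlap Dgcr8, so the tags there cannot be assigned to either gene.

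Dgcr8 also carries hairpins of its own. In the RefSeq tables (GRCm38.p6), 3 microRNA hairpins lie inside the 10 genes, and all 3 lay whole under a control peak and under no knockdown peak. Of all 1005 mouse hairpins in the table, 29.9% lay whole under a control peak and 1.49% under a knockdown peak. The counts for the 3 follow from their host genes, Dgcr8 and Xpo5, covered nearly whole in control and without a knockdown peak. They are no separate result. The mature sequences of the 3 are shown because they are the microRNAs encoded inside the genes of their own pathway. The Dgcr8 messenger is known to be cut by the Microprocessor at hairpins of this kind. The hairpins of miR-1306 (chr16:18284239-18284317, minus strand) and miR-3618 (chr16:18284550-18284637, minus strand) sit under the dense 7885 bp peak of Dgcr8. The hairpin of miR-693 (chr17:46231531-46231619, plus strand) lies in Xpo5, 388 bp inside the edge of a peak. The mature strands are given 5′ to 3′ with the seed, bases 2 to 8, in capitals, and no seed is shared between them.
mmu-miR-1306-5p: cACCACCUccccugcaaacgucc
mmu-miR-1306-3p: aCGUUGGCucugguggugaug
mmu-miR-3618-5p: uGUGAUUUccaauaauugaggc
mmu-miR-3618-3p: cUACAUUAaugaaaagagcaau
mmu-miR-693-5p: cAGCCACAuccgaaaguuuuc
mmu-miR-693-3p: gCAGCUUUcagauguggcuguaa

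Xpo5, the Ran-dependent carrier of hairpin precursors, lies on chromosome 17 at 46202811 to 46243598 and was, with Dgcr8, one of the 2 members covered nearly from end to end. Its 2 control peaks, 27660 and 14569 bp long and 494 bp apart, covered 38757 bp of the gene. They held 66.4 tags per kb (64.0 to 68.9), a scaled density of 1.83. The downstream peak ran 3472 bp past the gene's 3′ end, over the 321 bp to Polr1c and into it; this gene of RNA polymerases I and III is transcribed towards Xpo5 and was covered over 76.4%. Polh, a translesion DNA polymerase gene that starts 169 bp away on the other strand, was covered over 57.9% and shared no peak with Xpo5. None of these genes had a knockdown peak.

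Dicer1, the nuclease of the second cut, had its control peaks called in separate islands. It lies on the minus strand of chromosome 12 at 104687740 to 104751968, and 8 control peaks of 1586 to 7257 bp covered 43.5% of it, with gaps of 1369 to 9726 bp. Joining peaks less than 1 kb apart left 8 stretches. The density was 50.8 tags per kb (48.2 to 53.4), close to that of Drosha. Its sparsest peak, with 70 tags, had a scaled density of 1.03 (0.802 to 1.30), the lowest of all 50 member peaks, and 97.7% of the control list was denser. Tarbp2, the double-stranded RNA-binding partner of Dicer1, is the smallest member (chromosome 15, 102516077 to 102523676). It held 1 control peak of 4436 bp and 228 tags, at 51.4 tags per kb (44.9 to 58.5), over 38.8% of the gene. That peak ran 1485 bp past the 3′ end of Tarbp2 and covered all of Npff, a neuropeptide gene 162 bp away. Map3k12, which overlaps the 5′ end of the annotated Tarbp2 span by 928 bp, shared no peak with it. Among the protein-coding genes within 20 kb of a member, Pcbp2, 16008 bp from Tarbp2 and named after its values were seen, was the only one with knockdown coverage (90.3% in control and 6.29% in knockdown). Neither Dicer1 nor Tarbp2 had a base pair under a knockdown peak.

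The 4 Argonaute genes, which encode close relatives that hold the guide strand, were the members that differed most from each other. Ago2, the only one of the 4 proteins in mammals known as an efficient slicer of matched targets, lies alone on chromosome 15 at 73101625 to 73184947. The other 3 lie side by side on the minus strand of chromosome 4 in the order Ago3, Ago1, Ago4, within 206.6 kb. The covered shares in control were 74.0% in Ago1, 47.2% in Ago2, 7.37% in Ago3 and 0 in Ago4. Ago1 (126435012 to 126468707) held 3 peaks of 11151, 3585 and 10560 bp at 61.2 tags per kb (58.1 to 64.3), separated by at most 785 bp. Ago2 held 1 peak of 31083 bp, the longest of any member, with 2066 tags and 76.6% of all covered bases of the gene. The other 3 peaks of Ago2 were 1942 to 4694 bp long. In all, Ago2 had 61.2 tags per kb (58.8 to 63.6), within the interval of Ago1. The long peak contains the non-coding gene Gm31725, whose strand is not listed. Ago3 (126326994 to 126431670) held 3 short peaks over 7714 bp of its 104.7 kb. The peak nearest its 5′ end, of 4986 bp, reached a scaled density of 1.66 (1.48 to 1.86), while the others were at 1.13 (0.845 to 1.48) and 1.096 (0.832 to 1.42). Ago4 (126489487 to 126533586) had no base pair under a peak of either list.

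The cluster thus went from covered to uncovered between adjacent genes. Of the 3341 bp between Ago3 and Ago1, 369 bp next to Ago1 were covered in control, and of the 20779 bp between Ago1 and Ago4 none. No knockdown peak lay in any Argonaute gene. The promoters of Ago1 and Ago4 are shown because they belong to the neighbours that differed most. Each run is the 250 bases before the most upstream listed start (RefSeq, GRCm38.p6), 5′ to 3′ on the minus strand, with every CG in capitals; Ago1 is chr4:126468632-126468881 and Ago4 chr4:126533459-126533708.
Ago1: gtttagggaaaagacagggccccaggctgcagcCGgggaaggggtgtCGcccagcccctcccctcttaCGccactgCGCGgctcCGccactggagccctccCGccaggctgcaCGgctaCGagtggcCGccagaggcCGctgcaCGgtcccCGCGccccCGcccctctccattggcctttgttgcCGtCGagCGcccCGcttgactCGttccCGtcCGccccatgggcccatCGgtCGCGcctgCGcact
Ago4: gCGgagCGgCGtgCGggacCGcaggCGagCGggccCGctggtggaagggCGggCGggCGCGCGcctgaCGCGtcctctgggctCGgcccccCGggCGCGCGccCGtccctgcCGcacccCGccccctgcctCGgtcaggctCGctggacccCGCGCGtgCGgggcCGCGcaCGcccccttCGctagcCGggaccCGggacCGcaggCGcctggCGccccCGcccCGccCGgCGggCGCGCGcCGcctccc

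CG dinucleotides numbered 26 in the Ago1 run and 46 in that of Ago4, where the median over 17492 protein-coding genes with an entry was 10, or 17 over those with a control peak and 4 over those without. By this measure the unmarked Ago4 had the most CG-rich promoter of the 9 members with an entry, above 99.6% of all. Neither list covered a base of these 250 bases in any of the 9. How often this holds over all promoters was not computed. Searched on both strands, CCAAT occurred in 5 of the 9 (36.5% of all promoters of this length, and 37.2% of those of genes with a control peak). In the same order of backgrounds, GGGCGG occurred in 7 (42.7% and 62.2%) and TATAAA in none (12.4% and 5.49%). These matches describe letters and are no evidence of a bound factor.

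Tnrc6a, the GW182 scaffold that recruits the CCR4-NOT and PAN2-PAN3 deadenylases to an Argonaute, was the only member with a peak in both lists. It lies on chromosome 7 at 123031101 to 123195296. In control, 7 peaks covered 37100 bp, or 22.6% of the annotated gene, at 54.5 tags per kb (52.2 to 57.0). The coverage rose towards the 3′ end: the 4 peaks nearest the 5′ end were 1403 to 1969 bp long with 55 to 80 tags each, and the last 3 were 3886, 9194 and 17460 bp long with 217, 512 and 1027 tags. In knockdown, 1 peak of 1895 bp and 73 tags was called at 123187275 to 123189169, wholly inside the longest control peak and over 10.9% of its length, 6127 bp before the gene's end. It held 38.5 tags per kb (30.2 to 48.4), or a scaled density of 1.31 (1.03 to 1.65), where the enclosing control peak held 1.62 (1.53 to 1.73). These windows differ in length, so the values do not compare the mark over the same bases. In the knockdown list 31.2% of peaks were denser. By the authors' own values its fold over background was 3.89, against a median of 4.11 in the knockdown list, its score 111.46 and its FDR 1.95%.

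The annotated span of Tnrc6a begins 92784 bp before its only listed promoter, and no control peak lay in that stretch. Measured from the listed start, the gene is 71.4 kb long and had 52.0% under control peaks and 2.65% under the knockdown peak. Its covered share among the members therefore depends on which start is used. The same change of span took Tarbp2 from 38.8% to 53.8% and moved the other 7 members with an entry by less than 1 percentage point. The 250 bases before the listed start of Tnrc6a (chr7:123123635-123123884, plus strand) are shown for contrast with the Argonaute promoters, again with CG in capitals. They held 9 CG and a GC share of 42.4%, the lowest of the 9 members, where the others had 60.0% to 85.6%.
Tnrc6a: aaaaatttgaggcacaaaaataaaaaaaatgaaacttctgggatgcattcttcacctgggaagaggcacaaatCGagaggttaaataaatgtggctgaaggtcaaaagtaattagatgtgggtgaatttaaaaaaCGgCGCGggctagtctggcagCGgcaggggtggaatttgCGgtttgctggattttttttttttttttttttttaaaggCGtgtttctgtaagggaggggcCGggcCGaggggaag

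Seen along the direction of transcription, the members shared a 5′ end free of control peaks. This could be described for the 8 marked members with a listed start. None had a covered base within the first 1 kb, and no start base was covered, as for 93.1% and 99.0% of the 6761 protein-coding genes with a control peak, a listed start and at least 5 kb from there to the gene's end. The distance from the start to the first peak was narrow in 4 of them, at 1461 bp in Dicer1, 1537 bp in Xpo5, 1574 bp in Drosha and 1684 bp in Dgcr8. It was 2534 bp in Tarbp2, 4371 bp in Tnrc6a, 7747 bp in Ago1 and 64593 bp in Ago3. The 3′ end of the gene lay under a control peak in 6 of the 8 (75%, 34.9 to 96.8), against 45.7% of the 6761 genes. The exceptions were Tnrc6a, whose last peak stopped 595 bp short of the end, and Ago3. In Dgcr8, Xpo5 and Tarbp2 the peak over the 3′ end ran on into or over a neighbouring gene, so it cannot be assigned to the member alone. In 7 of the 8 the downstream 50% of the gene was more covered than the upstream 50%, against 77.0% of all. The contrast was 100% against 7.62% in Tarbp2, 85.5% against 18.4% in Tnrc6a and 94.4% against 53.9% in Ago1. Drosha was the exception, with 65.9% downstream and 76.7% upstream, a direction shared with 22.9% of all. Each feature given with a share of the 6761 genes also occurred among them, and with 8 genes none of these sets the members apart. Distances to the first peak and peaks running into a neighbour were not computed over all genes.

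**Figure D3:**
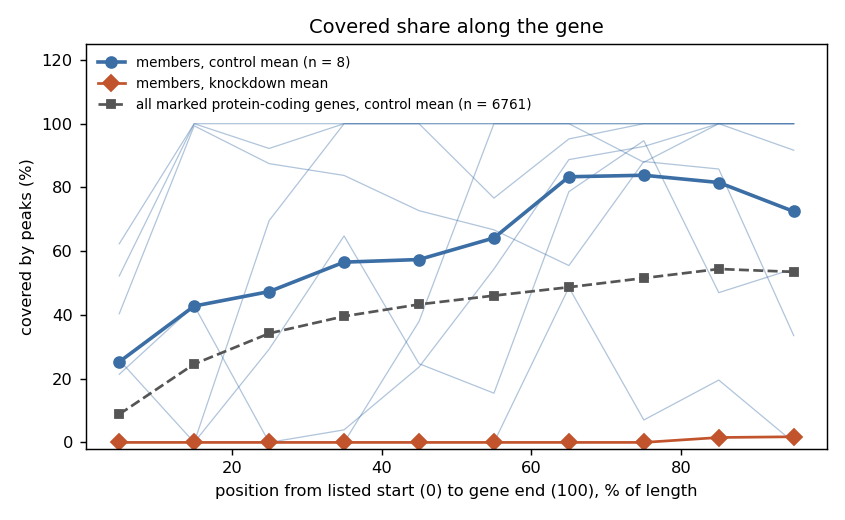
Percent of each of 10 equal bins that lay under peaks, from the listed start (0) to the gene's end (100). Thin lines are the 8 marked members with a listed start in control, the thick blue line is their mean, the orange line their knockdown mean and the dashed line the control mean of 6761 marked protein-coding genes. The members' control mean is 25.3% in the first bin and 83.8% in the eighth, where that of the 6761 genes is 8.83% and 51.6%. The members' knockdown mean leaves 0 in the last 2 bins alone, through Tnrc6a.

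The densities describe peaks that were called and set no detection level, since the caller's cutoff was a p-value and not a density. Member peaks in control had scaled densities of 1.03 to 2.07, with a median of 1.34. The caller's fold over background, the authors' value, ranged from 2.99 to 7.98 among them, with a median of 4.67 against 4.34 in the whole control list. The sparsest peak of the knockdown list was at 1.02, and 5% of its peaks lay below 1.12. All 50 control peaks of the members were denser than the former value and 45 denser than the latter. In the whole control list 5% of peaks lay below 1.06, so nearly all control peaks exceeded the former value too. The 50 of 50 therefore says nothing particular about the members. The share of all control peaks above the latter value was not computed. A stretch without a peak, in either list, is one where the caller's threshold was not passed, and not one shown to lack the mark. This holds for the gaps between control peaks and for Ago4 too. Tags outside peaks were not analysed here. Scaling to kept tags also does not correct for a loss of the mark over the whole genome.

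**Figure D4:**
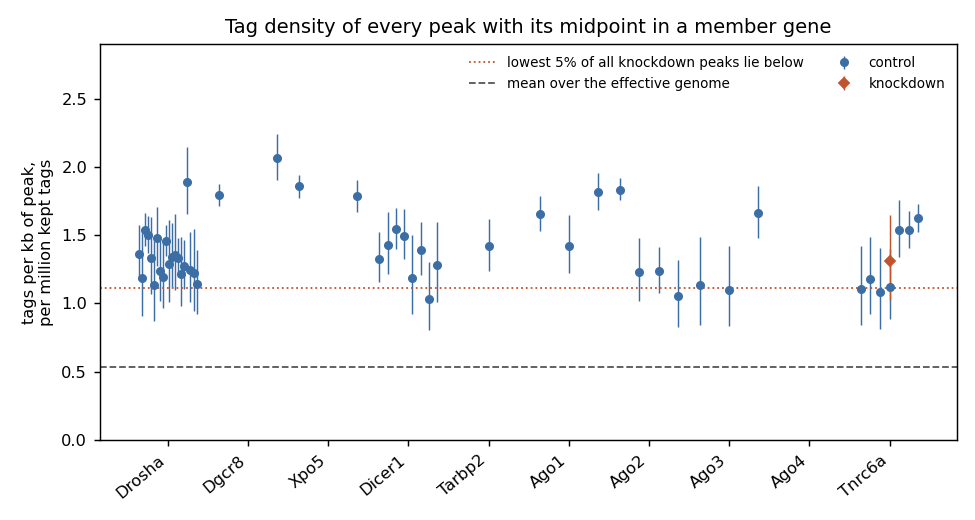
Scaled density (tags per kb of peak per 1000000 kept tags) of every peak with its midpoint in a member (blue, control; orange, knockdown), with exact Poisson 95% intervals; peaks of a gene are in coordinate order. The dotted line at 1.12 has the sparsest 5% of all knockdown peaks below it and the dashed line at 0.535 is the mean over the effective genome. The densest peak is that of Dgcr8 at 2.07, the sparsest control peak lies in Dicer1 at 1.03, and the knockdown peak of Tnrc6a lies at 1.31.

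The other genes of the pathway, 61 in 5 groups, showed the same wide marking in control: 55 of 61 (90.2%) were marked, with a median covered share of 45.3%. In knockdown 11 were marked, all of them among the 55. That is a kept share of 20% (exact 95% interval 10.4% to 33.0%), beside 10.6% of all marked genes, which lies inside the interval at its lower edge. The share depended on the setting: 7 of 54 kept a peak with scores of 100 or more, and 5 of 48 with 10% coverage required. With only the 3040 top-scoring control peaks, 10 of 29 kept one. Shares of all genes at these settings were not computed. The list was also chosen with earlier results known, so no excess is read from it. The members' share was 11.1%. The members and this list share no gene. Genes that assist the Microprocessor or act on its substrates were all marked, 10 of 10, with a median covered share of 89.0%, and 4 kept a peak (40%, exact 95% interval 12.2 to 73.8). Over all protein-coding genes 41.2% were marked and 10.6% of those kept a peak, and these shares are the background for the counts of each group. The 4 genes were the RNA helicase gene Ddx5 (87.9% in control and 39.9% in knockdown), Hnrnpa1 (90.1% and 32.9%), the splicing regulator gene Khsrp (83.9% and 28.8%) and Safb (94.1% and 7.81%). Safb2 (92.8%) and Srsf3 (91.7%) were the most covered of those without a knockdown peak.

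Of the 8 genes of loading and transport all were marked, and the chaperone gene Hsp90ab1 alone kept a peak (0.316% to 52.7%). It had 96.3% in control and 84.8% in knockdown, the highest knockdown coverage among the 61. Hsp90aa1 (100%) and Hspa8 (97.0%), both chaperone genes too, had none. The 6 genes that control let-7 turnover had a median covered share of 15.1%, 5 were marked and none kept a peak (0 to 52.2%). Tut7, a uridylyltransferase gene, had 89.5% and Trim71 30.5%. Among 24 genes of GW182 proteins, deadenylation and decapping, 23 were marked and 4 kept a peak (4.95% to 38.8%). Pabpc1, the poly(A)-binding protein gene, had 86.7% and 38.8%. The others kept little: the scaffold gene Cnot1 had 35.9% and 1.23%, the deadenylase gene Cnot8 34.4% and 4.35%, and Dcp1b, for a decapping cofactor, 14.9% and 2.91%. Cnot3 (91.5%) and Pan2 (86.3%) had no knockdown peak. The GW182 paralogs Tnrc6b (7.38%) and Tnrc6c (30.6%), named after their values were seen, had none either.

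Of 13 genes for Argonaute-associated proteins and the Piwi branch, 9 were marked and 2 kept a peak (2.81% to 60.01%), Fxr2 (81.0% and 8.82%) and the RNA-editing gene Adar (42.6% and 2.79%). Zswim8 (73.1%), whose product takes part in target-directed microRNA decay, had none. The 6 genes of the list without any peak, named after their values were seen, were the germline Argonaute relatives Piwil1, Piwil2 and Piwil4, the let-7 inhibitor gene Lin28b, the deadenylase gene Cnot6l and Fmr1. Their covered share was 0 in both conditions.

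**Figure D5:**
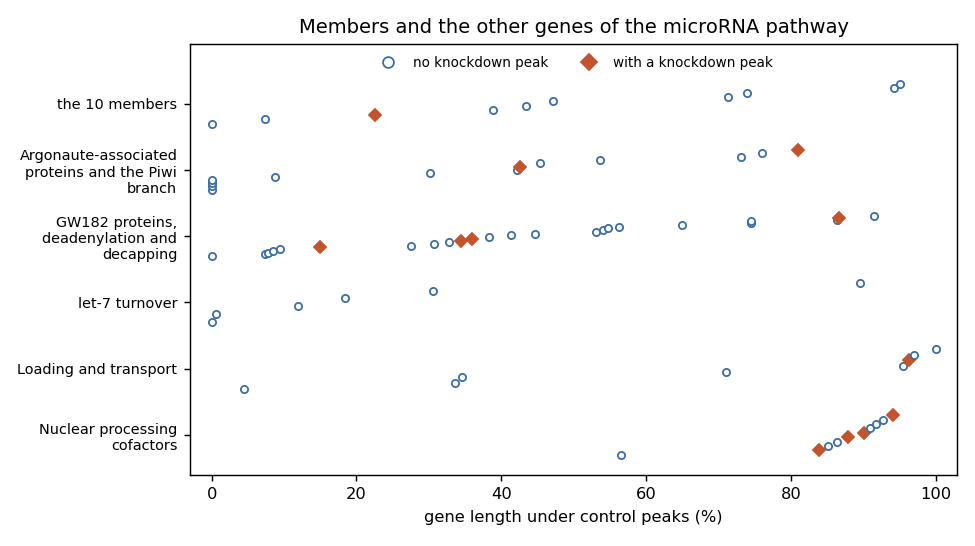
Percent of gene length under control peaks for the 61 other pathway genes by group and for the 10 members (top row). Open circles are genes without a knockdown peak and orange diamonds genes with one; height within a row only spreads the points. Diamonds number 4 among the nuclear cofactors, which lie between 56.6% and 94.1%, and 1 among the members.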

How the data were processed

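The members and gene lists were chosen with earlier results of these data known. All 10 members are named. Of the 61 other pathway genes the text names, per group, those with a knockdown peak and the 2 most covered in control without one. One gene that this rule names is not reported here. The submitters' processing notes name Bowtie 1.1.2, FastQC 0.11.5 and build mm10. Peak calling, per the file headers, was done by the authors with MACS 1.4.2 on merged replicates and merged inputs, at a p cutoff of 1e-05, keeping 1 tag per position. The deposited tables give, per peak, an unnormalized tag count, a score of -10 times log10 of the caller's p, a fold enrichment (a ratio over the local background) and an FDR in percent, all the authors' own. The deposited BED files hold exactly the peaks with an FDR of 5% or less.

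Gene spans, promoters and microRNAs came from RefSeq tables of GRCm38.p6, the build of the peaks. A gene was marked when a peak midpoint lay in its span. The direction of transcription came from the promoter table (9 of 10 members). Tag densities are tags of peaks with their midpoint in a gene, per kb of peak, with exact Poisson intervals; shares have exact Clopper-Pearson intervals. The labels do not say whether replicates were separate cultures. Tags and neighbouring peaks are not independent, so intervals cover counting error only. Coverage functions were tested on simulated peaks. Python 3.11.15, numpy 2.4.6, pandas 2.3.3 and scipy 1.17.1 were used. Alternatives were FDR and score limits, equal numbers of peaks, longer spans, other rules for a marked gene and joined peaks.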

Additional observations from a re-analysis of the deposited data

How the results depend on the processing

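With an FDR of 5% or less the values for the 10 genes did not move, since none of their 51 peaks had a higher FDR. With scores of 100 or more, the median covered share in control fell to 32.6% and the summed covered length to 206.6 kb, and of the other pathway genes 7 had a knockdown peak, all 7 marked in control too. This limit removes the 27660 bp peak of Xpo5 (score 90.42, covered share then 27.2%) and the 31083 bp peak of Ago2 (98.22, then 8.70%), although at most 3.72% of all control peaks are denser than either. With only the 3040 top-scoring control peaks, 6 members were marked and 0 kept a peak. The median was then 8.03%, the summed length 75.9 kb and the density 61.8 tags per kb. Of the other pathway genes 29 were marked at this limit, 10 of them with a knockdown peak too. Spans longer by 1 kb at both ends gave 45.3% and 296.8 kb. Requiring 10% coverage left 8 members in control, without Ago3, 0 in knockdown and 0 in both, and of the other pathway genes 5 in knockdown and 5 in both. Shares of all protein-coding genes under the settings of this paragraph were not computed, so these counts have no background. The median was 43.5% over members that overlap no other gene, and 53.8% from the listed starts, a span chosen after seeing the data. Joining control peaks less than 1 kb apart, also chosen later, turned 50 peaks into 34 stretches. No paired analysis was possible because peaks were called on merged replicates, and leaving out a replicate was not run for the same reason.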
